A study of Arabidopsis thaliana with 24 samples.

Results

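The comparison set leaves of the nas4x-1 mutant that had Fe in the medium against leaves of wild type plants that had none, so that loss of nicotianamine and lack of Fe could be read side by side in leaf transcripts. Its members are 6 of the 24 ATH1 arrays of the series, chosen by sample title: the 3 arrays of nas4x-1 leaves + Fe and the 3 of wild type leaves - Fe, paired by biological repetition. The nas4x-1 plants carry T-DNA insertions in all 4 NICOTIANAMINE SYNTHASE (NAS) genes, and the lines share the ecotype Columbia, wild type without the insertions. Both genotypes grew in hydroponic Hoagland medium and were harvested at the age of 5 weeks, after 7 days with 10 µM FeNa-EDTA (+ Fe) or with 0 µM (- Fe). The experiment was repeated in 3 consecutive weeks, and rosette leaves were taken in each. Replicates 1, 2 and 3 are these weeks. Leaves of wild type + Fe (3 arrays) stand beside both groups as the point from which each departs. The insertions are present throughout life, while Fe was withheld from the wild type for 7 days only, so the kind of loss and its duration cannot be told apart in this comparison.

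Nicotianamine is a small molecule that plant cells make from S-adenosylmethionine and that binds Fe, Cu, Zn and other metals. It keeps Fe soluble in the phloem and lets it pass from veins into young tissue. Leaves short of usable Fe raise genes of Fe signalling, such as those for the IRON MAN peptides and the BRUTUS ubiquitin ligases. Leaves with Fe to spare raise ferritins, the plastid proteins that store it. Plastids also hold superoxide dismutases that use either Fe (FSD1) or Cu and Zn (CSD2), and plants trade one for the other with the metal supply.

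A signal is the brightness of a probe set after the authors' scaling and normalization, on a linear scale. Differences are those of log2(signal + 16), nas4x-1 + Fe minus wild type - Fe, from a limma fit over the 12 leaf arrays with the replicate as a block. The offset of 16 shrinks the change of dim probe sets, so their fold changes are understated. Fold changes are these log2 differences put on a linear scale, not ratios of mean signals. A result is called past the threshold at an adjusted p under 0.05. Even with the pairing ignored, 3 arrays a group allow no two-sided exact p under 0.1. Single genes were therefore read from the fit across all probe sets. The number of arrays limits the precision: the 95% interval of the difference reached 0.34 to either side at the median, and it lay within ±1 for 93.8% of probe sets. In whole leaves, fewer cells of a type and less RNA per cell cannot be told apart.

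Of 22746 probe sets, 103 passed the threshold (0.453%), 23 of them higher (0.101%) and 80 lower (0.352%) in nas4x-1 + Fe than in wild type - Fe. At an unadjusted p under 0.05 there were 2615. All 103 differed the same way in the 3 replicates, and 82 differed by at least 2-fold, 18 higher and 64 lower. The signals of the 2 groups did not overlap for 100 of the 103, while over all probe sets this held for 13.2% (7.24% higher and 5.92% lower in the mutant). Genes of Fe storage and the Fe superoxide dismutase led the higher side. Genes of Fe signalling, of the Cu and Zn superoxide dismutase, and of DNA synthesis and mitosis stood on the lower side. The count moved with single arrays. It was 66 without nas4x-1 + Fe replicate 1, 28 without its replicate 2 and 50 without its replicate 3. It was 159 without wild type - Fe replicate 1, 34 without its replicate 2, 53 without its replicate 3 and 63 without wild type + Fe replicate 2. Without the replicate block 42 passed (0.185%; 0.0615% higher and 0.123% lower), all of them among the 103. With 8 pairs of probe sets whose levels changed places, described further on, left out, 81 passed, 15 higher and 66 lower.

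The mean in wild type + Fe leaves was placed against the means of the 2 groups, without regard to their spread. For 18 of the 23 higher probe sets, the wild type + Fe mean lay between the 2 groups. For 3 it lay at or below wild type - Fe, and for 2 above nas4x-1 + Fe. Of the 80 lower probe sets, 46 had a wild type + Fe mean between the groups, 32 had one below nas4x-1 + Fe and 2 had one above wild type - Fe. These placements include 10 probe sets of the pairs that changed places, for which no direction is read. PSAG and AT3G14100, the 2 with a wild type + Fe mean above nas4x-1 + Fe, are among these 10. In 32 of the 80, all 3 nas4x-1 + Fe signals were under 16, the offset itself. The comparison of wild type - Fe with wild type + Fe shares 3 arrays with this one and had 275 probe sets past the threshold (1.21%; 0.888% higher and 0.321% lower at - Fe), or 40 without the block. That of nas4x-1 with wild type at + Fe shares the other 3 and had 17 (0.0747%; 0.0308% higher and 0.044% lower in the mutant), or 6 without the block. With the pairs that changed places left out, these 2 counts were 253 and 5. Without single arrays they ran from 19 to 365 and from 7 to 69.

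The synthases themselves came first as a look at the labels. NAS1 (AT5G04950) had signals of 20.2, 23.2 and 19.3 in nas4x-1 + Fe and 429.3, 85.9 and 176.4 in wild type - Fe (replicates 1, 2 and 3). NAS4 (AT1G56430) had 1.64, 17.5 and 17.1 against 591.1, 208.6 and 110.4. The groups did not overlap for either gene, and both were lower in the mutant, with a log2 difference of -2.48 in NAS1 (SE 0.356, adjusted p = 0.0191) and -3.26 in NAS4 (SE 0.519, adjusted p = 0.0302). NAS2 (AT5G56080) stood the other way round, with 107.3, 92.5 and 109 in the mutant against 2.52, 1.60 and 11.1. The log2 difference was 2.52 (SE 0.238, adjusted p = 0.00167), 5.74-fold with the offset, and all 3 mutant arrays lay above every wild type array. Wild type + Fe had 13.4, 3.22 and 6.40 of NAS2. From wild type + Fe the mutant differed by 2.35 (adjusted p = 0.00611, and 0.00392 without the block), and wild type - Fe by -0.17 (adjusted p = 0.831). NAS3 (AT1G09240) had overlapping signals, 48.7, 35.0 and 24.6 against 66.4, 22.8 and 48.2 (log2 difference -0.20, adjusted p = 0.824). Wild type + Fe leaves had 354.5, 129.9 and 312.7 of NAS3, above both groups. NAS3 differed from wild type + Fe by -2.15 in wild type - Fe (adjusted p = 0.00644) and by -2.35 in nas4x-1 + Fe (adjusted p = 0.00819, and 0.0856 without the block), and these values share the wild type + Fe arrays. Where the insertions lie relative to the probes is not known here, so a signal in nas4x-1 does not check the label. Without the block, NAS1 and NAS4 missed the threshold (adjusted p = 0.0612 and 0.0504). NAS1 also missed it without replicate 1 or 3 of nas4x-1 + Fe (adjusted p = 0.0729 and 0.102) or replicate 3 of wild type - Fe (adjusted p = 0.0893), and NAS4 missed it without any of 7 single arrays (adjusted p from 0.0502 to 0.126).

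FSD1 had the widest difference among all probe sets tested on this scale. FSD1 (AT4G25100), the plastid Fe superoxide dismutase, had signals of 2833, 1317 and 2011 in nas4x-1 + Fe and 27.7, 0.726 and 0.629 in wild type - Fe. Every mutant array was far above every wild type - Fe array, and replicate 1 was the highest in both groups. The means were 2054 ± 759 and 9.68 ± 15.6 (SD, n = 3 arrays each). The log2 difference with the offset was 6.42 (SE 0.170, 95% interval 6.04 to 6.80, adjusted p = 1.08e-07), or 85.9-fold, less than the ratio of these means. Wild type + Fe leaves had a mean of 1396, and nas4x-1 + Fe differed from it by 0.54 (95% interval 0.16 to 0.92, adjusted p = 0.352).

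The Cu and Zn side ran opposite. CSD2 (AT2G28190), the plastid Cu and Zn superoxide dismutase, had signals of 605.8, 1072 and 651.3 in nas4x-1 + Fe against 2819, 3176 and 3218 in wild type - Fe. CCS (AT1G12520), the chaperone that hands Cu to this enzyme, had 136.6, 222.6 and 116.2 against 677.8, 739.5 and 632.5. In both genes the groups lay clear of each other, and replicate 2 was the highest mutant array. The log2 difference was -2.01 in CSD2 (SE 0.245, adjusted p = 0.00762) and -2.05 in CCS (SE 0.200, adjusted p = 0.00189). Wild type + Fe lay between the groups, at means of 1519 for CSD2 and 251 for CCS. The mutant differed from it by -0.91 (95% interval -1.46 to -0.36, adjusted p = 0.269) in CSD2 and by -0.59 (95% interval -1.04 to -0.15, adjusted p = 0.384) in CCS.

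Of the 22 genes listed for superoxide dismutases and Cu handling, 11 were measured, 1 was higher and 2 were lower, with a median difference of -0.11. FSD1, CSD2 and the Cu chaperone CCH were tied to a probe set by the study's tables of changed genes alone, so the count of calls is not independent evidence. CSD2 missed the threshold without nas4x-1 + Fe replicate 3 (adjusted p = 0.0502). CCH (log2 difference 0.63, adjusted p = 0.207), the Cu transporter COPT2 (0.47, adjusted p = 0.49) and the Cu ATPase HMA5 (-0.99, adjusted p = 0.142) did not pass.

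Ferritins were the clearest gene group on the higher side. FER1 (AT5G01600) had signals of 3237, 3760 and 2848 in nas4x-1 + Fe against 60.2, 354.9 and 344.9 in wild type - Fe. The lowest mutant array was several times the highest wild type array. The difference was 15.1-fold (log2 3.92, SE 0.480, adjusted p = 0.00762). FER3 (AT3G56090) had 721.5, 1037 and 723 against 35.2, 124.3 and 117.2, an 8.43-fold difference (log2 3.08, SE 0.262, adjusted p = 0.000876). FER4 (AT2G40300) had 416, 422.3 and 268.7 against 17.7, 69.6 and 73.7 (log2 2.57, SE 0.348, adjusted p = 0.0136). In all 3 ferritins, wild type - Fe replicate 1 was the lowest of the 6 arrays. FER2 (AT3G11050), a ferritin known mainly from seeds, was dim in both groups, at 8.95, 14.5 and 11.1 against 1.31, 4.85 and 4.34 (log2 0.50, adjusted p = 0.167).

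Wild type + Fe leaves had less FER1 and FER3 signal than the mutant. FER1 had 2024, 1748 and 1780 there, below each of the mutant's arrays, and FER3 had 142.1, 274.8 and 318.3, also below each of them. The mutant exceeded wild type + Fe by 0.81 in FER1 (95% interval -0.26 to 1.89, adjusted p = 0.65), by 1.74 in FER3 (95% interval 1.16 to 2.32, adjusted p = 0.0679) and by 0.79 in FER4 (95% interval 0.017 to 1.57, adjusted p = 0.525), none past the threshold. Wild type - Fe differed from wild type + Fe by -3.10 in FER1 (adjusted p = 0.0186), -1.33 in FER3 (adjusted p = 0.044) and -1.77 in FER4 (adjusted p = 0.044), values that share the - Fe arrays. Without the block FER3 (0.397) and FER4 (0.102) missed the threshold there.

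VTL2 (AT1G76800), a member of the vacuolar iron transporter-like family, had 239, 130.3 and 138.8 in nas4x-1 + Fe against 34.1, 45.3 and 60.1 in wild type - Fe. The groups did not overlap (log2 1.54, SE 0.227, adjusted p = 0.021), and the wild type + Fe mean was 146. Of 10 genes listed for Fe storage, 8 were measured. FER1, FER3, FER4 and VTL2 were higher, none was lower, and the median difference was 1.02, against 0.0121 over all probe sets. VTL2 was tied to its probe set by the study's tables of changed genes alone. Without nas4x-1 + Fe replicate 2 only FER3 of the 4 passed (FER1 adjusted p = 0.0687, FER4 and VTL2 0.109). FER4 and VTL2 also missed the threshold without nas4x-1 + Fe replicate 1 (0.0576 and 0.0622) or wild type - Fe replicate 2 (0.0512 and 0.0794).

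**Figure D1:**
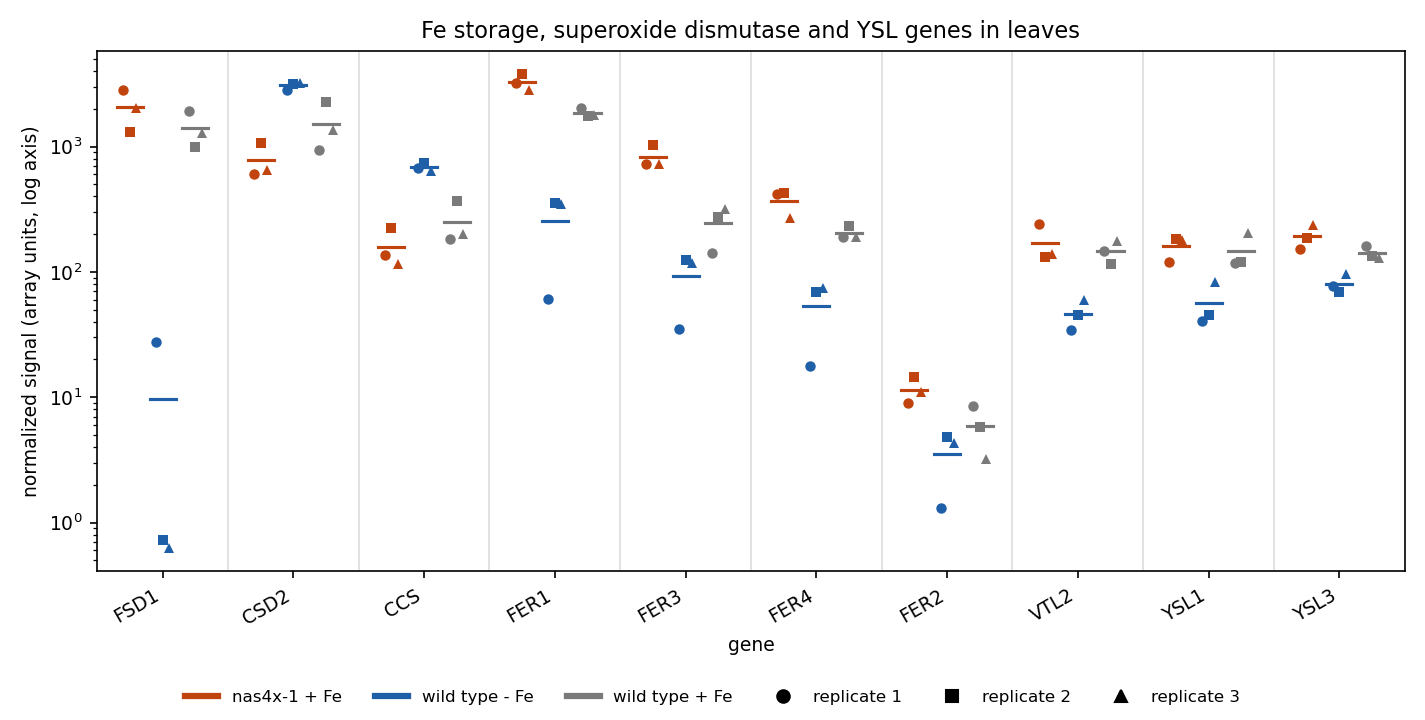
Signals on a log axis of FSD1, CSD2, CCS, the 4 ferritins, VTL2, YSL1 and YSL3 in the 3 arrays each of nas4x-1 + Fe, wild type - Fe and wild type + Fe leaves; marker shapes are replicates and bars are means. FSD1 runs from 1317 to 2833 in nas4x-1 + Fe and from 0.629 to 27.7 in wild type - Fe, while CSD2 and CCS stand the other way.

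Members of the yellow stripe-like family carry metal complexes of nicotianamine across membranes. YSL1 (AT4G24120) had signals of 120.4, 184.1 and 178.4 in nas4x-1 + Fe and 40.4, 45.5 and 82.6 in wild type - Fe. YSL3 (AT5G53550) had 151.9, 187.7 and 235.7 against 77, 69.2 and 95.8. Both genes were higher in the mutant with no overlap, YSL1 by 2.50-fold (log2 1.32, SE 0.167, adjusted p = 0.00935) and YSL3 by 2.13-fold (log2 1.09, SE 0.173, adjusted p = 0.0302). The wild type + Fe means were 148 and 140.4. From these the mutant differed by 0.14 in YSL1 (95% interval -0.24 to 0.51) and by 0.40 in YSL3 (95% interval 0.0081 to 0.78), neither past the threshold. All 8 members were measured, 2 passed, and the other 6 had differences between -0.21 and 0.55. Without the block neither passed (adjusted p = 0.0951 and 0.0898). Without nas4x-1 + Fe replicate 2 (0.0613 and 0.178) or wild type - Fe replicate 2 (0.0794 and 0.167) neither passed, and YSL3 also missed the threshold without any of 4 other arrays (0.0607 to 0.172). YSL1 was tied to its probe set by the study's tables of changed genes alone.

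Genes of Fe signalling were lower in nas4x-1 + Fe than in wild type - Fe. IMA1 (AT1G47400), an IRON MAN peptide that promotes Fe uptake, had signals of 35.1, 5.98 and 5.15 in nas4x-1 + Fe and 1561, 618 and 113 in wild type - Fe. Wild type + Fe had 31.8, 3.59 and 3.93. Replicate 1 was the highest in each of these 3 groups, and the difference was -4.14 (SE 0.479, adjusted p = 0.00554). From wild type + Fe the mutant differed by 0.12, with an interval from -0.95 to 1.19. BTS (AT3G18290), the BRUTUS ubiquitin ligase that limits Fe responses, had 100.6, 106.5 and 86.0 against 940.9, 550.3 and 174 (log2 difference -2.05, SE 0.324, adjusted p = 0.0302). BTSL1 (AT1G74770), its relative, had 10.1, 0.507 and 9.26 against 113.6, 88.0 and 55.9 (log2 difference -2.16, SE 0.231, adjusted p = 0.00356). In both, wild type - Fe replicate 1 was the highest and no array of the mutant reached the wild type - Fe range. The wild type + Fe means were 93.4 for BTS and 10.9 for BTSL1, and the mutant differed from them by 0.10 (95% interval -0.62 to 0.82) and -0.28 (95% interval -0.79 to 0.24). BTSL2 did not pass (log2 difference -0.012, adjusted p = 0.988). Of 6 listed Fe sensing ligases and peptides, 4 were measured, 3 were lower and the median was -2.10. BTS was tied to its probe set by the study's tables of changed genes alone. Without the block only BTSL1 of the 3 passed (IMA1 adjusted p = 0.111, BTS 0.247). IMA1 also missed the threshold without nas4x-1 + Fe replicate 2 (0.0561) or wild type - Fe replicate 2 (0.0512), and BTS without any of 7 single arrays (0.0502 to 0.167).

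OPT3 (AT4G16370), which loads Fe into the phloem, had signals of 98.4, 123 and 181.8 in nas4x-1 + Fe and 887.7, 789.4 and 391.2 in wild type - Fe. The groups did not overlap, and OPT3 was 4.55-fold lower in the mutant (log2 difference -2.19, SE 0.307, adjusted p = 0.0169). Its mean in wild type + Fe was 127. OPT3 missed the threshold without nas4x-1 + Fe replicate 1 or 2 (adjusted p = 0.0564 and 0.122) or wild type - Fe replicate 2 (0.109). FRO3 (AT1G23020), a ferric chelate reductase of mitochondria, had 84.1, 66.7 and 69.0 against 1112, 471.8 and 124.8 without overlap, and it missed the threshold (log2 difference -2.26, adjusted p = 0.0604). NRAMP4, which moves Fe out of the vacuole, had a difference of -1.21 (adjusted p = 0.272). Of 18 genes listed for Fe reduction and transport, 14 were measured, OPT3 was the one past the threshold and the median was -0.099.

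The transcription factors of the Fe response did not pass. BHLH039 (AT3G56980), which partners the root regulator FIT, had 8.38, 5.44 and 5.81 in nas4x-1 + Fe against 815.2, 127.5 and 7.64 in wild type - Fe (log2 difference -2.65, SE 0.789, adjusted p = 0.237). The wild type values ran far apart, and the lowest was inside the mutant's range. BHLH101 (-1.67, adjusted p = 0.277) and PYE (-1.12, adjusted p = 0.197) also had their highest signal in wild type - Fe replicate 1. Of 14 factors listed, 10 were measured, none passed and the median was -0.069. ORG1 (AT5G53450), a protein of the kinase family chosen after its values were seen, had 242.2, 197.9 and 189.7 against 1990, 1471 and 537.2 (log2 difference -2.39, adjusted p = 0.0102). The 5 measured genes of coumarin synthesis and export, which secretes Fe-mobilising phenolics from roots, had no call and a median of -0.015.

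**Figure D2:**
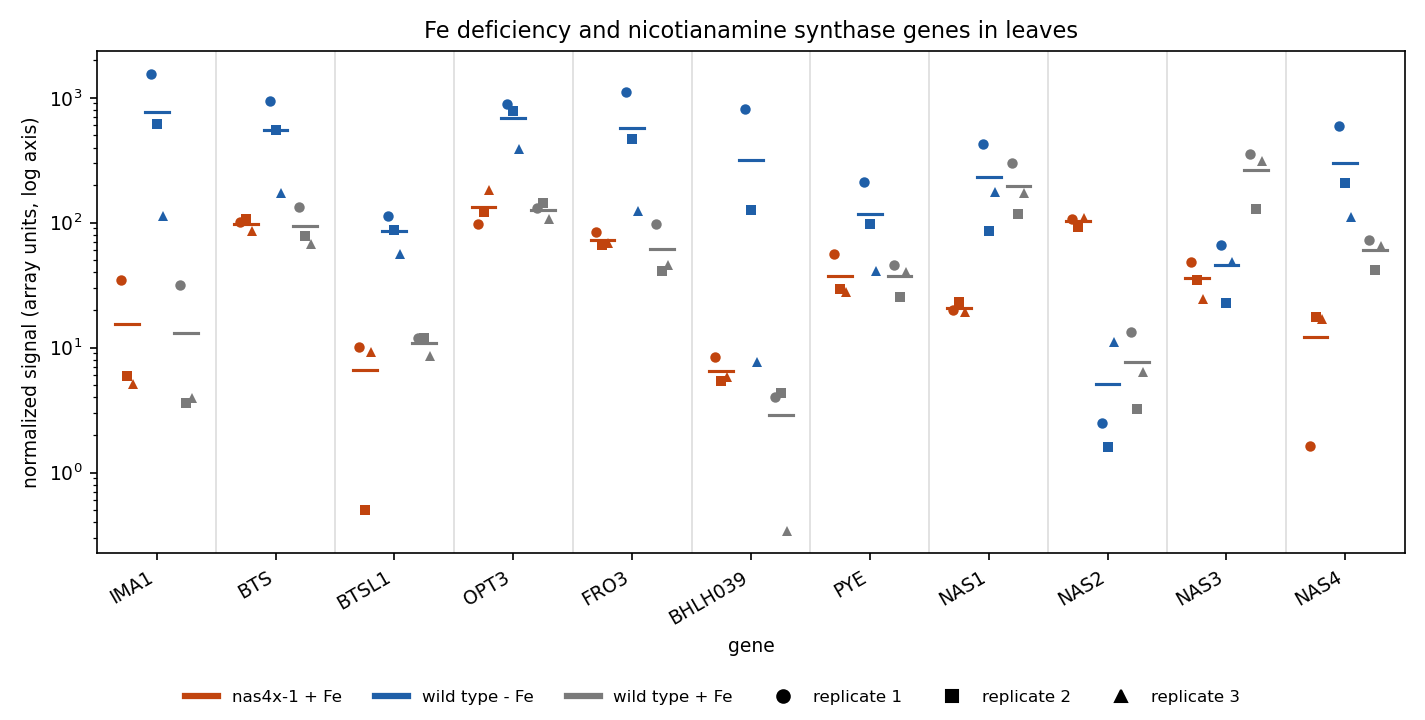
Signals on a log axis of IMA1, BTS, BTSL1, OPT3, FRO3, BHLH039, PYE and NAS1 to NAS4 in nas4x-1 + Fe, wild type - Fe and wild type + Fe leaves, 3 arrays each; marker shapes are replicates and bars are means. In wild type - Fe, IMA1 runs from 113 to 1561 and BHLH039 from 7.64 to 815.2, and NAS2 is the synthase with more signal in the mutant.

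Genes of DNA synthesis, repair and mitosis were lower in nas4x-1 + Fe. TSO2 (AT3G27060), the small subunit of ribonucleotide reductase, had signals of 103.1, 193.4 and 242.1 against 1330, 1903 and 1364 in wild type - Fe. This Fe-containing enzyme makes deoxyribonucleotides. Every mutant array was several times below the lowest wild type - Fe array, and the difference was 8.21-fold (log2 -3.04, SE 0.317, adjusted p = 0.00293). Wild type + Fe had 93.0, 140.1 and 102.1, and the mutant differed from it by 0.56 (95% interval -0.15 to 1.27, adjusted p = 0.634).

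TK1a (AT3G07800), a thymidine kinase of the same supply route, had 159.3, 177.4 and 194.1 against 447.5, 670.1 and 857.8 (log2 difference -1.76, SE 0.168, adjusted p = 0.00167). MYB3R4 (AT5G11510), an activator of genes of mitosis, had 2.21, 11.0 and 4.67 against 33.6, 92.9 and 168.6 (log2 difference -2.21, SE 0.270, adjusted p = 0.00762). PARP2 (AT4G02390), a poly(ADP-ribose) polymerase of DNA repair, had 20.2, 22.3 and 17.5 against 52.4, 137.9 and 268.3 (log2 difference -2.003, SE 0.329, adjusted p = 0.0361). In these 3 genes the groups did not overlap and wild type - Fe replicate 1 was the lowest wild type - Fe array. DEL3, a repressor of the E2F family (-1.98, adjusted p = 0.0137), BUB3.2 of the spindle checkpoint (-1.998, adjusted p = 0.0384) and the kinase FU of cytokinesis (-1.91, adjusted p = 0.0498) were also lower. So were 3 genes of the list named for passing the threshold: XRI1, named for its response to X-rays (-1.57, adjusted p = 0.0237), BRCA1 of recombination repair (-1.48, adjusted p = 0.0174) and the Aurora kinase AUR3 (-1.44, adjusted p = 0.0352). In the 12 fits that left out 1 array, TSO2 passed in 12, MYB3R4 in 10, DEL3 in 9, BUB3.2 in 4, and PARP2 and FU in 1 each.

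Of 36 genes listed for DNA synthesis, repair and mitosis, 15 were measured, 10 were lower, none was higher and the median was -1.57. The groups did not overlap for 14 of the 15, against 13.2% over all probe sets (7.24% higher and 5.92% lower in the mutant). MCM7, of the replicative helicase, was the one above 0, at 42.6 against 14.8 (log2 difference 0.91, adjusted p = 0.111), and the other 4 below 0 were CENP-C (-1.23, adjusted p = 0.0565), CMT3, AUR1 and CDKB1;2 (-1.14 to -0.44). The study's tables of changed genes alone tied 10 of the 15 to their probe sets, and 7 of these passed. The counts of calls and of groups without overlap are thus not independent evidence. Of the other 5, 3 passed and the median was -1.44. The summed signal of the 15 genes was 462.4, 616.7 and 703.4 in nas4x-1 + Fe and 2249, 3643 and 3798 in wild type - Fe. It was 395.4, 503.1 and 413.3 in wild type + Fe and 1369, 1223 and 956.7 in nas4x-1 - Fe leaves. The bright genes TSO2 and TK1a made up most of these sums. The other 13 genes summed to 199.9, 246 and 267.2 in nas4x-1 + Fe, 471.4, 1070 and 1577 in wild type - Fe, 169.5, 227.7 and 185.9 in wild type + Fe and 295.4, 302.3 and 371.8 in nas4x-1 - Fe. Without the block 6 passed, and MYB3R4 (adjusted p = 0.0605), PARP2 (0.0898), FU (0.069) and BRCA1 (0.127) did not. FU did not pass with the pairs that changed places left out (adjusted p = 0.0552). The count fell to 5, 2 and 3 without nas4x-1 + Fe replicate 1, 2 and 3, to 2 and 5 without wild type - Fe replicate 2 and 3, and to 6 without either nas4x-1 - Fe replicate 3 or wild type + Fe replicate 2. It was 12 without wild type - Fe replicate 1.

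**Figure D3:**
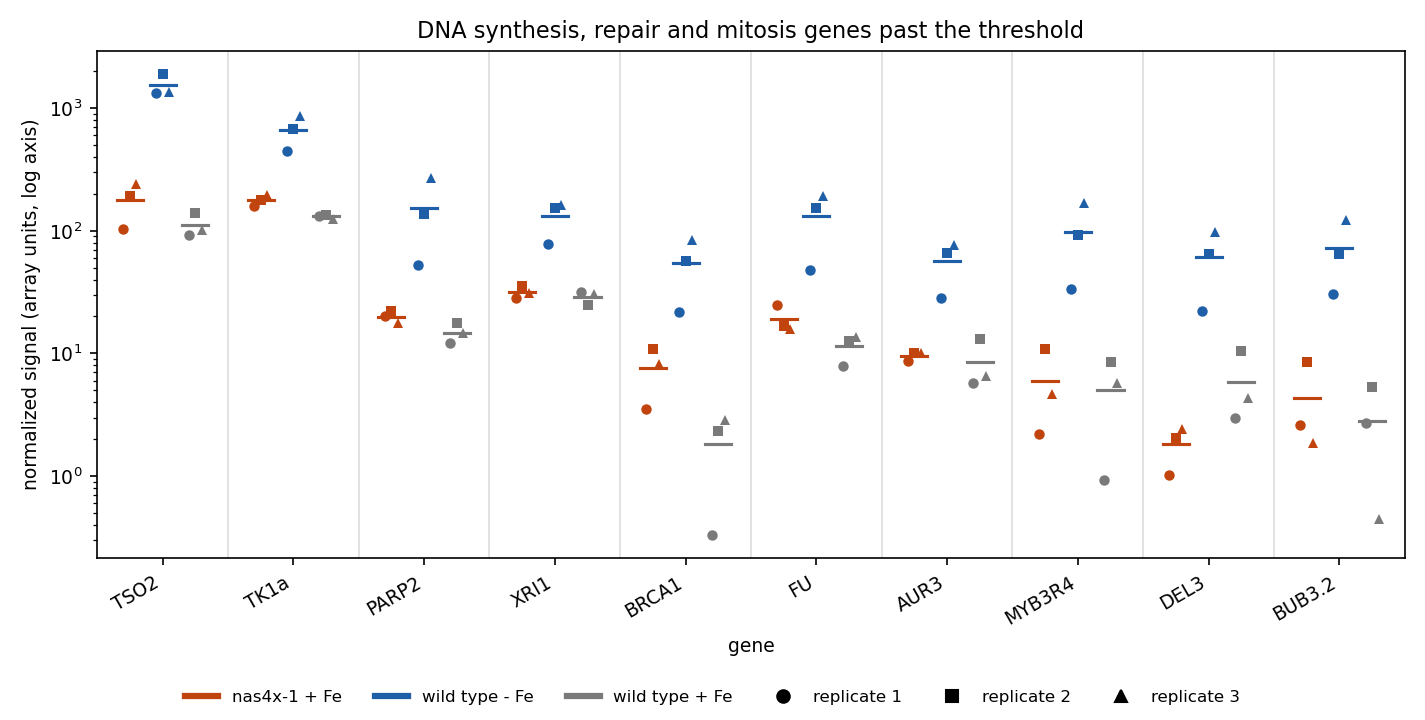
Signals on a log axis of 10 genes of DNA synthesis, repair and mitosis in nas4x-1 + Fe, wild type - Fe and wild type + Fe leaves, 3 arrays each; marker shapes are replicates and bars are means. TSO2 lies between 1330 and 1903 in wild type - Fe and between 92.95 and 242.1 in the other groups, and all 10 genes passed the threshold.

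Replicate 1 of wild type - Fe stood apart in both kinds of gene. It was the lowest of the 3 wild type - Fe arrays for 14 of the 15 genes of DNA synthesis, repair and mitosis and for 6 of the 8 of Fe storage. It was the highest for 4 of 4 Fe sensing ligases and peptides and for 7 of 10 Fe transcription factors. Over all probe sets it was the lowest for 34.5% and the highest for 36.4%. Without it, 12 genes of DNA synthesis, repair and mitosis, 4 of Fe storage and 2 of the Fe sensing ligases and peptides passed.

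A few genes, NAS2 above among them, differed from wild type + Fe in opposite ways in the 2 groups, or in the mutant alone. AT3G56360 had signals of 214, 91.5 and 96.4 in nas4x-1 + Fe, 1963, 1207 and 853 in wild type - Fe, and 780.9, 382.1 and 291.3 in wild type + Fe. Within each replicate the order was the same, with wild type + Fe in the middle. The main difference was -3.19 (SE 0.177, adjusted p = 2.48e-05). Wild type - Fe stood above wild type + Fe by 1.48 (adjusted p = 0.00644) and the mutant below it (log2 difference -1.71, adjusted p = 0.0065). Both passed only with the block (0.281 and 0.559 without it).

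DGAT3 (AT1G48300), a soluble diacylglycerol acyltransferase that binds an Fe-S cluster, had 360, 111.1 and 154.9 in nas4x-1 + Fe against 1459, 1021 and 794.2 in wild type - Fe (log2 difference -2.42, SE 0.200, adjusted p = 0.000729). Wild type + Fe had 1042, 522.5 and 397.6, and the mutant was below it (log2 difference -1.62, adjusted p = 0.0227, and 0.636 without the block). QQS (AT3G30720), an orphan gene tied to starch content, had 211.5, 212.7 and 116.8 against 1232, 602.3 and 560.2 (log2 difference -2.003, SE 0.225, adjusted p = 0.00484), and 1282, 964 and 902 in wild type + Fe. For both genes the mutant lay below each array of both wild type groups. Without the block neither DGAT3 (adjusted p = 0.0951) nor QQS (0.103) passed. QQS was the one call among 5 measured genes of starch and sucrose.

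AT5G05250 had signals of 6.42, 0.637 and 6.96 in nas4x-1 + Fe against 656.6, 364.5 and 145 in wild type - Fe (log2 difference -4.08, SE 0.362, adjusted p = 0.00116). Wild type + Fe was between them, at 56.8, 23.1 and 14.6, and the mutant's difference from it did not pass (log2 difference -1.12, adjusted p = 0.37). On the higher side, AT3G49160 had 112.5, 92.2 and 151.9 against 3.04, 11.8 and 27.6 (log2 difference 2.22, adjusted p = 0.00167). AT3G43670 (2.19, adjusted p = 0.021) and AT1G59930 (2.18, adjusted p = 0.0108) were also higher. AT3G43670 missed the threshold without any of 4 single arrays (nas4x-1 + Fe replicates 1, 2 and 3, wild type - Fe replicate 2; adjusted p from 0.0518 to 0.109) and AT1G59930 without wild type - Fe replicate 2 (0.0794). AT2G36200 was lower (-2.43, adjusted p = 0.0136) and missed it without the block (0.144) and without 4 single arrays, replicates 2 and 3 of each group (0.0552 to 0.109).

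IRT3 (AT1G60960), a Zn and Fe transporter of the ZIP family, had 193.5, 310.3 and 446.5 in nas4x-1 + Fe and 71.3, 67.7 and 80.7 in wild type - Fe. The groups were apart, and IRT3 was 3.55-fold higher in the mutant (log2 1.83, SE 0.324, adjusted p = 0.0498). This call was lost with the pairs that changed places left out (adjusted p = 0.0552), without the block (0.0603) and without any of 10 single arrays (0.0558 to 0.249). The related ZIP5 (log2 1.61, adjusted p = 0.0656) and ZIP4 (log2 1.34, adjusted p = 0.148) did not pass. Of 22 genes listed for Zn transport, 20 were measured, IRT3 was the 1 call and the median was 0.034.

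Several groups had no call. Of 27 genes listed for salicylic acid and defence, 11 were measured, none passed and 10 were below 0, with a median of -0.55. ICS1, which makes salicylic acid, had 91.6, 194 and 228.8 in nas4x-1 + Fe against 221.2, 370.9 and 293.1 in wild type - Fe (log2 difference -0.79, adjusted p = 0.214). The ranges overlapped narrowly, and wild type + Fe had 73.2, 64.8 and 67.8, below all 6. The list's median difference from wild type + Fe was 1.37 in wild type - Fe and 0.9998 in nas4x-1 + Fe, values that share the wild type + Fe arrays. The study's tables of changed genes alone tied 7 of the 11 to their probe sets.

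The 8 measured of 12 genes of mitochondrial stress were all below 0 and none passed (median -0.55). The differences ran from -2.18 in SDH1-2, which passed in 2 of 22 other settings, to -0.14. The groups did not overlap for 4 of the 8, against 13.2% over all probe sets. The study's tables of changed genes alone tied 3 of the 8 to their probe sets. BCS1, an AAA ATPase of the mitochondrion, had 90.3, 180.1 and 152.7 against 132.9, 280.6 and 230.5 (log2 difference -0.54, adjusted p = 0.335), and 27.2, 50.8 and 45.0 in wild type + Fe. It was lower in the mutant within each replicate, although the groups overlapped. From wild type + Fe, BCS1 differed by 1.98 in wild type - Fe (adjusted p = 0.00282) and by 1.44 in the mutant (adjusted p = 0.047, and 0.328 without the block).

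No gene of Fe-S cluster and heme synthesis (4 of 11 measured, median 0.61), of chlorophyll synthesis and breakdown (3 of 16, median 0.59) or of senescence (2 of 7, median -0.57) passed. NEET, an Fe-S protein, had 1018, 263.9 and 608.4 against 2.83, 95.5 and 330.1 (log2 difference 2.65, adjusted p = 0.221). The groups overlapped there, with wild type - Fe replicate 1 far below the rest. Of 30 nuclear photosystem genes 6 were measured, and 5 of them lay between 0.096 and 0.53 with no call.

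The remaining photosystem gene, PSAG, was one of a pair of probe sets that changed places. PSAG, a subunit of photosystem I, had a mean of 4704 ± 340 in nas4x-1 + Fe, 116 ± 26.1 in wild type - Fe and 4829 in wild type + Fe, while AT5G26610 had 109 ± 11.7, 4558 ± 358 and 125. In the wild type - Fe arrays each probe set thus held about the level the other had elsewhere. SYP122 with AT1G32760 and AT3G14100 with FRS12 did the same in the wild type - Fe arrays. AT1G66130 with AT1G30600 and AT5G64460 with AT3G24080 had one level in both wild type groups and the other in the mutant. These 5 pairs gave 10 of the 103 calls, 8 of them among the 24 named genes with the largest differences. Of 8 such pairs known in the series, 3 had members 9649 rows apart in the table. The cause was not tested, and no direction for these 10 genes is read here.

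**Figure D4:**
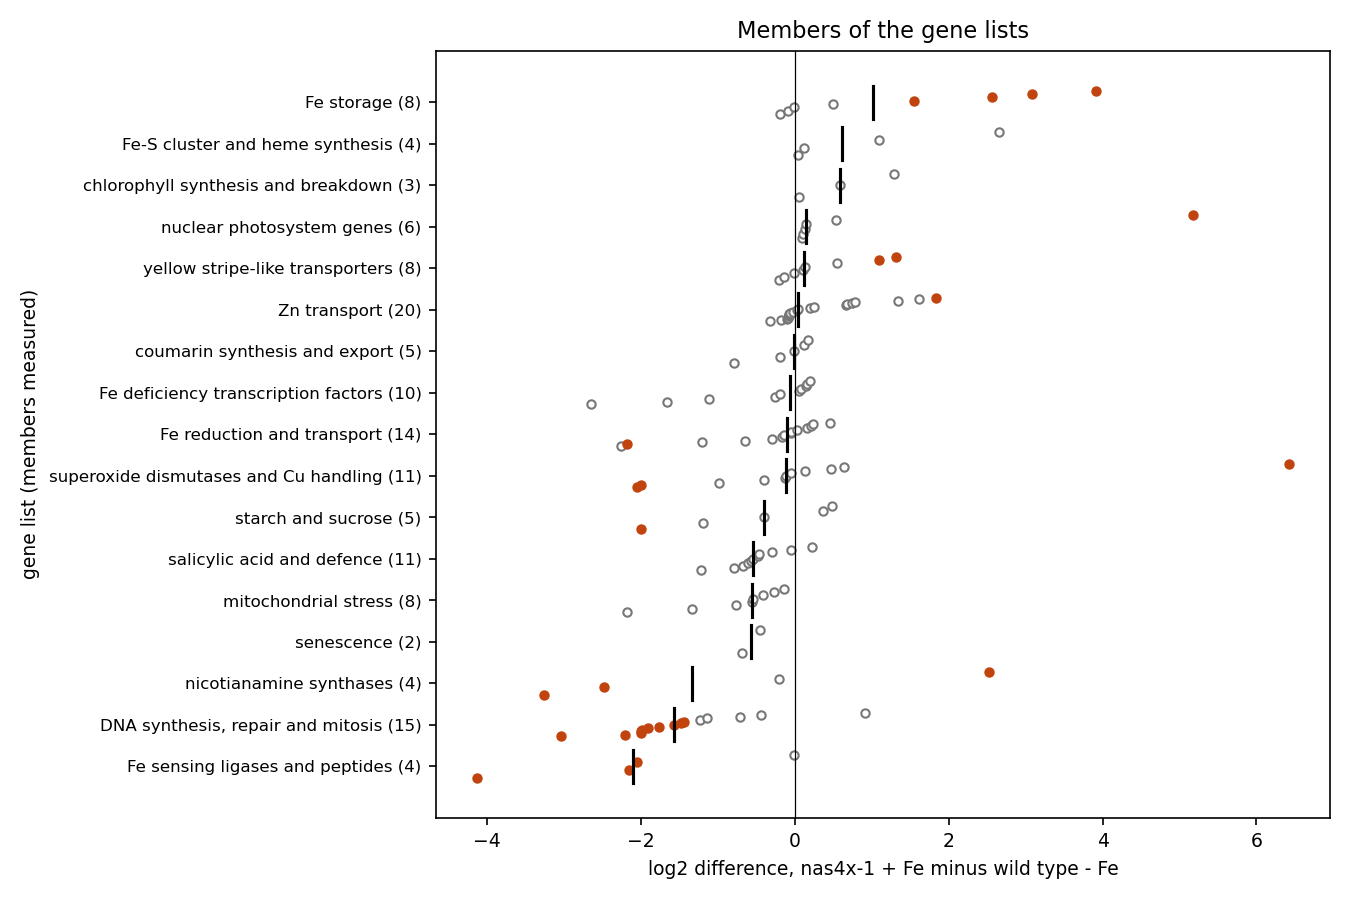
Log2 difference between nas4x-1 + Fe and wild type - Fe leaves (horizontal axis) for the measured members of each gene list (rows). Filled circles passed the threshold, open ones did not, and black bars are medians, from -2.10 for Fe sensing ligases and peptides to 1.02 for Fe storage.

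As a look at the tissue, RCA, the activase of Rubisco and the only measured one of 4 mesophyll markers, had signals of 3701 to 4076 in nas4x-1 + Fe and 3894 to 4770 in wild type - Fe. EXPA7, the only measured one of 5 root markers, had 1.11 to 9.21 and 4.02 to 5.87. No marker of phloem, guard cells or trichomes was measured, and the part of these cells in the results was not tested.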

How the data were processed

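ATH1 arrays of leaves were used, 12 of the 24 in the series. The deposited intensities were made by the authors, who summarised probe sets with GCOS (Microarray Suite 5.1), scaled each array to a target of 100 and quantile-normalized them. Detection calls were not used here. The table holds 22810 probe sets, 64 of them controls that did not enter. Among the 22746 compared, 13707 were matched to 1 gene, 194 of them by the study's gene tables alone (99 only by its tables of changed genes), 505 to several and 8534 to none. A listed gene with no probe set of its own was not measured.

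Signals were quantile-normalized again over the 12 leaf arrays (largest change 0.0243 on the log2 scale; array medians 37.8 to 37.94), and log2(signal + 16) was fitted with limma 3.58.1 (R 4.3.3), group plus replicate, eBayes with an intensity trend, and Benjamini-Hochberg adjustment over all 22746 with a threshold of 0.05. Scripts were tested on simulated data. Printed signals, means and SD are linear. The replicates were grown in 3 consecutive weeks, which pairs the arrays. Residuals correlated within a week, between groups, at 0.172 to 0.505, and between weeks at 0.121 or less. No source says whether plants were pooled. With the replicate as a block, p-values set a difference against the spread left after group and replicate over the 12 leaf arrays. By eBayes this spread is partly shared across probe sets. Signals (log2) of arrays of a group correlated at 0.9573 to 0.9794, and between the 2 groups compared at 0.9532 to 0.9776.

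Named genes were up to 12 in each direction with 1 gene and the largest difference among those past the threshold and changed the same way in 3 replicates, up to 6 of each list with the largest difference, the synthases, ferritins, FSD1, CSD2 and CCS, and up to 6 past in both side comparisons. Others are named as such. The comparison, the lists and the pairs that changed places were chosen with earlier results of these data known. Alternatives were other normalizations, offsets, filters, fits, arrays left out and an ANOVA after the study's description. The same settings for the side comparisons were added after seeing the data. Promoter sequences were not used here.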

Additional observations from a re-analysis of the deposited data

How the results depend on the processing

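Of 103 probe sets past the threshold, 42 passed with no replicate block (14 higher, 28 lower in nas4x-1 + Fe), 14 with the 6 arrays of the groups fitted alone (5 higher, 9 lower), 12 of them among the 103, and 4 with the methods' ANOVA (3 higher, 1 lower; 510 at an unadjusted p under 0.05). Leaving out the pairs that changed places gave 81, with 15 higher. Leaving out 1 of the 12 arrays gave 28 to 159 in all, 10 to 29 higher and 18 to 139 lower. The 6 arrays alone and the arrays left out leave fewer values to the estimate of the spread, and the cause of the other changes was not tested. The count was 89 to 121 with the other normalizations, offsets of 1 and 32, the dimmest 40% left out, or no intensity trend. With an offset of 1, 81 of 96 were among the 103, and with the dimmest left out, 80 of 121. The share of higher calls was 22.3%, and 12.6% to 38.0% without single arrays, 33.3% with no replicate block, 35.7% with 6 arrays and 18.5% without the pairs.

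All 39 named genes past the threshold kept their direction in the 22 settings that held them, and 19 passed in every setting that left out 1 array. Among these 19 are PSAG, SYP122, AT3G14100, AT1G66130, FRS12, AT1G30600, AT1G32760 and AT5G26610 of the pairs that changed places, for which no direction is read. The 4 that passed in every setting (PSAG, SYP122, AT3G14100 and AT5G26610) belong to the pairs that changed places, so no gene outside the pairs did. FSD1 missed the threshold in 1 setting, the ANOVA (adjusted p = 0.259). Of 69 named genes not past it, 5 passed in at least 1 setting. Genes of DNA synthesis, repair and mitosis had 0 calls with the ANOVA and 1 with the 6 arrays alone, and those of Fe storage had 0 with either. No result changed sign past the threshold. Signal near the offset of 16 limits the lower calls.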

Other observations

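A few genes outside the lists, chosen after their values were seen, also differed between the groups. PAL2 (AT3G53260), an entry enzyme of phenylpropanoid synthesis, had a mean signal of 198.5 in nas4x-1 + Fe and 388.9 in wild type - Fe (log2 difference -0.93, adjusted p = 0.0111), with 219 in wild type + Fe. AAP2 (AT5G09220), an amino acid permease of the phloem, had 198 against 568, and 555 in wild type + Fe (log2 difference -1.50, adjusted p = 0.0332). The mutant's difference from wild type + Fe in AAP2 did not pass (log2 difference -1.42, adjusted p = 0.103). GLP9 (AT4G14630), a germin-like protein, had 27.5 against 6.54, and 3.96 in wild type + Fe (log2 difference 0.96, adjusted p = 0.0391). The mutant's difference from wild type + Fe in GLP9 passed with the block (log2 difference 1.14, adjusted p = 0.0481) and not without it (0.19). Between the 2 groups compared, none of the 3 genes passed without the replicate block (adjusted p = 0.17, 0.0898 and 0.126).

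A gene other than NAS3 also had a like signal in both groups and another in wild type + Fe. AT3G55310 had 29.3, 22.8 and 16.5 in nas4x-1 + Fe, 30.3, 19.7 and 12.8 in wild type - Fe and 112.9, 51.6 and 64.3 in wild type + Fe. The 2 groups compared overlapped (log2 difference 0.088, SE 0.156), and both lay below each wild type + Fe array. Both of its differences from wild type + Fe use the same wild type + Fe arrays.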
